A study of Mus musculus with 12 samples.

Results

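The chemokines and chemokine receptors of the mouse genome were followed through cultures of intestinal muscle cells and through intact muscle. Members were taken by gene symbol alone: the numbered Ccl and Cxcl ligands, the Ccr and Cxcr receptors, the Ackr atypical receptors, and Cx3cl1, Cx3cr1, Xcl1 and Xcr1. This gave 62 of the 52550 genes in the table: 38 ligands, 18 receptors, 4 atypical receptors and 2 pseudogenes. RNA-seq read counts were available for 12 libraries from wild-type mice, 3 biologically independent replicates in each of 4 groups. The P plate group held primary cells of the intestinal muscle layers kept for 28 days on well plates in P medium, which is DMEM with 10% fetal bovine serum and is called proliferation medium. The M plate group held such cells kept as long on well plates in M medium, a serum-free differentiation medium, Advanced DMEM/F-12 with N2, B27 and N-acetylcysteine. It also held R-spondin1, which raises Wnt signalling, at 1 µg/ml, Noggin, which blocks BMPs, at 100 ng/ml, and Y27632, a blocker of ROCK, at 10 µM. The M scaffold group had the M medium and the 28 days in common with M plate, but grew on electrospun gelatin, a 3D support. Strips of native intestinal muscle were the positive control. The strips carry the label day 28 as well, and a source name that reads as cultured cells, so how long they were kept before RNA extraction is uncertain. The 3 cultures are mixed primary cells, so every value is an average over cell types.

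Chemokines are small secreted proteins that guide the migration of leukocytes along gradients, and most of them act through G protein-coupled receptors on the responding cell. The CC and CXC families are named after the spacing of their first conserved cysteines. Inflammatory members are induced in stromal cells and macrophages by NF-κB signalling, while homeostatic members such as Cxcl12 are made steadily by stromal and endothelial cells. The atypical receptors bind chemokines without G protein signalling and remove or hold them. In the muscle layer of the gut, resident macrophages carry the fractalkine receptor Cx3cr1 and live beside smooth muscle, fibroblasts, enteric glia and vessels.

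Counts assigned to genes ranged from 21396485 to 116643512 per library, and a count of 0 in a library allows up to 0.0257 to 0.140 CPM (counts scaled to library size; 3 counts, counting error only). The defining smooth muscle markers checked the tissue label: the 8 genes summed to 34060 to 35520 CPM in strips and to 2919 to 10990 CPM over the 9 culture libraries. The sum of 12 macrophage markers was lowest in strips (170 to 246 CPM), with 2072 to 4466 in M scaffold, 4480 to 5241 in M plate and 2536 to 23180 in P plate, and no marker of this list was at 0 in a whole group. P plate replicate 1 stood apart, with 23180 CPM of macrophage markers against 4527 and 2536 in the other replicates of its group. It had the highest value of its group for 23 of the 37 members tested, against 37.1% of all genes tested. M scaffold replicate 2 had the highest value of its group for 17 of 26 ligands tested, against 28.0% of all genes tested. Of the 37 members tested, it was highest for 18. Other groups leaned to 1 library as well. Strips replicate 1 was highest for 16 of 26 ligands (33.1% of all genes), and M plate replicate 2 for 14 of 26 (31.1%). Many values below are given with and without single libraries, chiefly P plate replicate 1 and M scaffold replicate 2.

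Of the 62 members, 45 reached 10 counts in at least 1 library and 17 did not. The members not read were Ccl1, Ccl21b, Ccl22, Ccl26, Ccl27b, Cxcl11 and Xcl1 among the ligands, Ccr4, Ccr6, Ccr8, Cxcr1, Cxcr2, Cxcr5, Cxcr6 and Xcr1 among the receptors, and the pseudogenes Ccl19-ps1 and Ccl19-ps3. A filter on low counts left 37 members for testing, 26 ligands, 7 receptors and the 4 atypical receptors. Ccl17, Ccl19, Cxcl3, Cxcl9, Cxcl17, Ccr2, Ccr7 and Ccr9 were read but not tested. Per kilobase of exon, strips were led by Cxcl14 at 127 ± 21.2 CPM per kb (mean ± SD, n = 3, as for all means below), followed by Ackr3 at 30.8 ± 0.772 and Cxcl12 at 7.17 ± 1.05, which do not overlap. M plate was led by Ccl21a at 164 ± 59.6 and Ccl8 at 132 ± 24.6 CPM per kb, which differ by less than their spread. In P plate, Ccl6 led at 428 ± 636 CPM per kb and Ccl2 followed at 135 ± 72.9, and in M scaffold Ccl2 led at 161 ± 193 and Cxcl5 followed at 84.8 ± 80.3, so neither order exceeds the spread between replicates.

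Many chemokines were higher in the cultures than in strips. A gene was called at an adjusted p under 0.05 in edgeR's quasi-likelihood test over all 17700 genes tested. In P plate against strips, 19 members were called higher and 9 lower, where 30.5% of all genes tested were called higher and 32.7% lower. In M plate against strips, 24 were higher and 5 lower, against 26.5% and 28.4% of all genes. In M scaffold against strips, 22 were higher and 5 lower, against 24.5% and 27.6%. In these 3 comparisons, which share the strips libraries, the median log2 difference of the 37 tested members was 1.97, 3.30 and 2.92, and that of all genes tested was -0.03, -0.01 and -0.02. M plate against P plate gave 8 members higher and 3 lower, where 14.3% of all genes were called higher and 10.6% lower, with a median of 0.47. M scaffold against M plate gave 1 member higher and 1 lower, where 1.53% of all genes were called higher and 1.64% lower, with a median of -0.40. A fit paired by replicate number within these 6 libraries called 3 members higher and 11 lower, where 4.81% and 5.69% of all genes were. These last 2 comparisons share the M plate libraries. In bulk RNA, fewer cells of a type and less RNA per cell cannot be told apart, which holds for each comparison below.

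**Figure D1:**
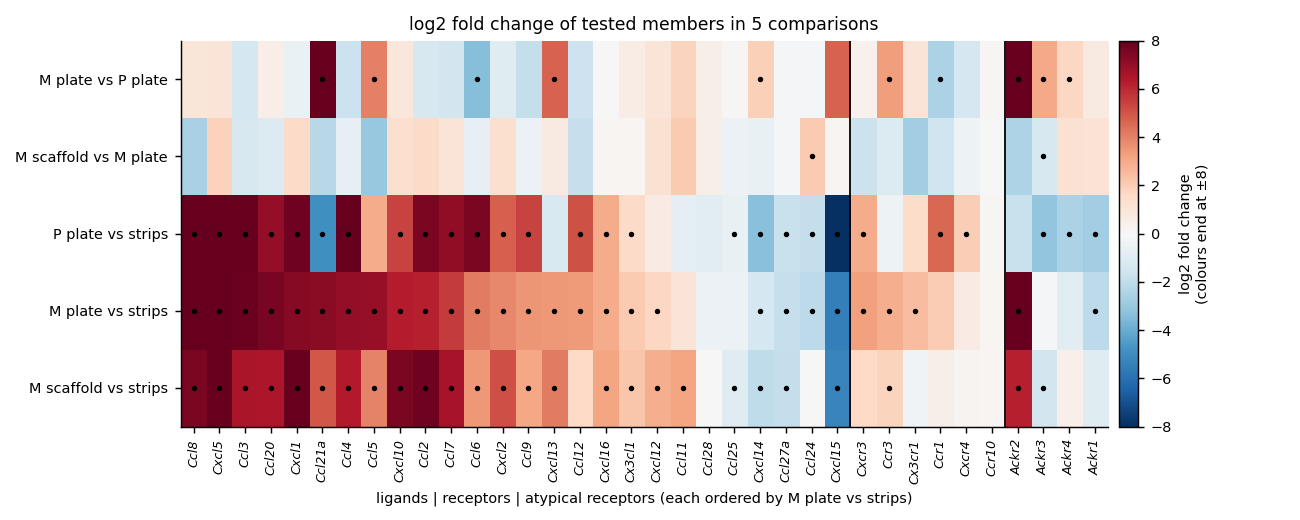
Log2 fold change of 36 tested members (columns, ligands then receptors then atypical receptors) in 5 comparisons (rows). Red is higher and blue lower in the group named first, colours end at 8 on the log2 scale, and dots mark calls at an adjusted p under 0.05. The rows against strips are red for most ligands, with Cxcl14, Ccl27a and Cxcl15 blue in each of the 3, and the row of M scaffold against M plate holds 2 dots.

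The monocyte-attracting CC ligands were low in strips and abundant in culture. Ccl2, the main ligand of Ccr2 on monocytes, stood at 1.31, 0.459 and 0.673 CPM in strips (replicates 1 to 3 in order here and below). It reached 249, 96.6 and 115 CPM in P plate, 29.4, 72.1 and 85.4 in M plate and 40.1, 435 and 73.1 in M scaffold. Every culture library was above every strip library. The log2 difference from strips was 7.54 ± 1.08 in P plate (SE, adjusted p = 0.000157) and 7.79 ± 1.09 in M scaffold (adjusted p = 0.000285), and 6.09 in M scaffold without its replicate 2. Ccl2 was also called higher in M plate. Ccl7, a further Ccr2 ligand, lies next to Ccl2 on chromosome 11. Strips held 0.464 to 0.958 CPM of Ccl7, while P plate held 22.4 to 197, M plate 18.6 to 37.5 and M scaffold 16.3 to 134. The log2 differences of Ccl7 were 7.08 ± 1.15 in P plate (adjusted p = 0.000360; 5.55 without P plate replicate 1) and 6.62 ± 1.13 in M scaffold (adjusted p = 0.000858; 5.40 without M scaffold replicate 2). P plate replicate 1 was the highest of its group for Ccl2 and Ccl7, and M scaffold replicate 2 the highest of its own.

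Ccl8 was abundant in M plate and uneven among the P plate libraries. In strips it had 8 counts in all, 0.110, 0.0417 and 0.0348 CPM. M plate held 78.2, 53.6 and 70.6 CPM and M scaffold 11.4, 7.55 and 14.2, without overlap between these groups. P plate held 100, 2.09 and 0.733 CPM, so that its replicate 1 was above all M plate libraries and its other replicates below them. The log2 difference from strips was 10.16 ± 2.03 in M plate (adjusted p = 0.00183), 9.19 ± 2.00 in P plate (adjusted p = 0.00232; 4.57 without P plate replicate 1) and 7.56 ± 1.96 in M scaffold (adjusted p = 0.00846). Ccl12 was also higher than strips in P plate, at 120, 5.41 and 4.91 CPM against 1.00 to 1.73, and in M plate, at 10.7 to 16.2 CPM. Its call in M plate was lost without M plate replicate 2 or any 1 of the strips (adjusted p = 0.0567 to 0.0849), and its log2 difference in P plate of 5.11 was 2.01 without P plate replicate 1. With limma-voom in place of edgeR, the calls of Ccl8 in P plate and of Ccl12 in P plate and M plate were lost (adjusted p = 0.0544, 0.0525 and 0.0689). Ccl11, eotaxin, which draws eosinophils through Ccr3, was at 8.02, 26.2 and 17.8 CPM in M scaffold, above all strips at 1.42 to 2.52 CPM. It was called higher there, a call lost without M scaffold replicate 2 or 3 or any 1 of the strips (adjusted p = 0.0549 to 0.0916).

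The macrophage-type CC ligands Ccl3, Ccl4, Ccl6 and Ccl9 were likewise lowest in strips, while the order of the cultures was not shared with Ccl2 or Ccl8. Ccl3 and Ccl4, the MIP-1 pair that draws macrophages and T cells, had 12 counts each over the 3 strips. Ccl3 stood at 127, 10.1 and 6.38 CPM in P plate, 11.4, 18.2 and 25.3 in M plate and 4.33, 8.23 and 9.82 in M scaffold, with 0 to 0.116 CPM in strips. Its log2 difference from strips was 9.23 ± 1.44 in P plate (adjusted p = 0.000283), 7.85 ± 1.40 in M plate (adjusted p = 0.000920) and 6.56 ± 1.37 in M scaffold (adjusted p = 0.00271). Without P plate replicate 1 the first was 6.65, and without strips replicate 3 the values were 10.37, 8.99 and 7.71. With limma-voom, the call of Ccl3 in M scaffold was lost (adjusted p = 0.0530). Ccl4 gave 8.71 ± 1.29, 7.01 ± 1.24 and 6.32 ± 1.23 in the same order (adjusted p = 0.000199, 0.000896 and 0.00181), and 6.47 in P plate without its replicate 1. Ccl6, a ligand of Ccr1 in mouse macrophages, had the highest level of any member in 1 library, 2085 CPM in P plate replicate 1, with 73.3 and 149 CPM in the other replicates. Strips held 3.27 to 5.56 CPM of Ccl6, M plate 50.1 to 89.6 and M scaffold 35.7 to 65.3, and it was called higher in each culture. Its log2 difference in P plate, 7.52 ± 1.25 (adjusted p = 0.000436), was 4.69 without replicate 1, and its call in M scaffold was lost without strips replicate 2 or 3 (adjusted p = 0.0571 and 0.0643). Ccl9, which also acts on Ccr1, was called higher than strips in each culture, with 1.58 to 3.89 CPM in strips against 282, 40.5 and 36.3 in P plate, 21.7 to 38.5 in M plate and 18.2 to 31.5 in M scaffold. Without P plate replicate 1 its P plate difference on the log2 scale went from 5.44 to 3.75.

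All 12 macrophage markers were called higher than strips in P plate and in M plate, and 10 of 12 in M scaffold, with median log2 differences of 5.55, 4.90 and 3.90. Set against the macrophage marker sum, Ccl3 amounted to 1.68 to 5.46 CPM per 1000 CPM of markers in the cultures and to 0 to 0.619 in strips. Ccl6 amounted to 11.2 to 17.9 per 1000 in M plate and M scaffold and 17.5 to 22.6 in strips, ranges that overlap, and to 90.0, 16.2 and 58.6 in P plate. Ccl8 amounted to 10.5 to 17.4 per 1000 in M plate, against 3.17 to 4.41 in M scaffold, while strips held 0.186 to 0.446. Ccr1 and Ccl12 were highest per 1000 CPM of markers in strips. Ccr1 amounted to 16.3 to 18.4 there, against 4.67 to 8.69 in P plate and 0.960 to 3.07 in the M groups, and Ccl12 to 5.51 to 7.03 in strips against 0.596 to 5.16 in the 9 culture libraries. Ccl9 amounted to 9.30 to 15.8 per 1000 in strips and 8.94 to 14.3 in P plate, which overlap, and to 4.84 to 10.6 in the M groups. Lyz2 held 13840 of the 23180 CPM of this sum in P plate replicate 1, and 71.1 of 246 in strips replicate 1. Csf1r, another of the 12, was at 776.5, 295 and 79.6 CPM in P plate and 67.2 to 75.2 in strips. The order of groups per 1000 CPM of markers, also for Ccr1 and Ccl12, therefore depends on which markers are summed. The part of the macrophage content in these differences was not tested.

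**Figure D2:**
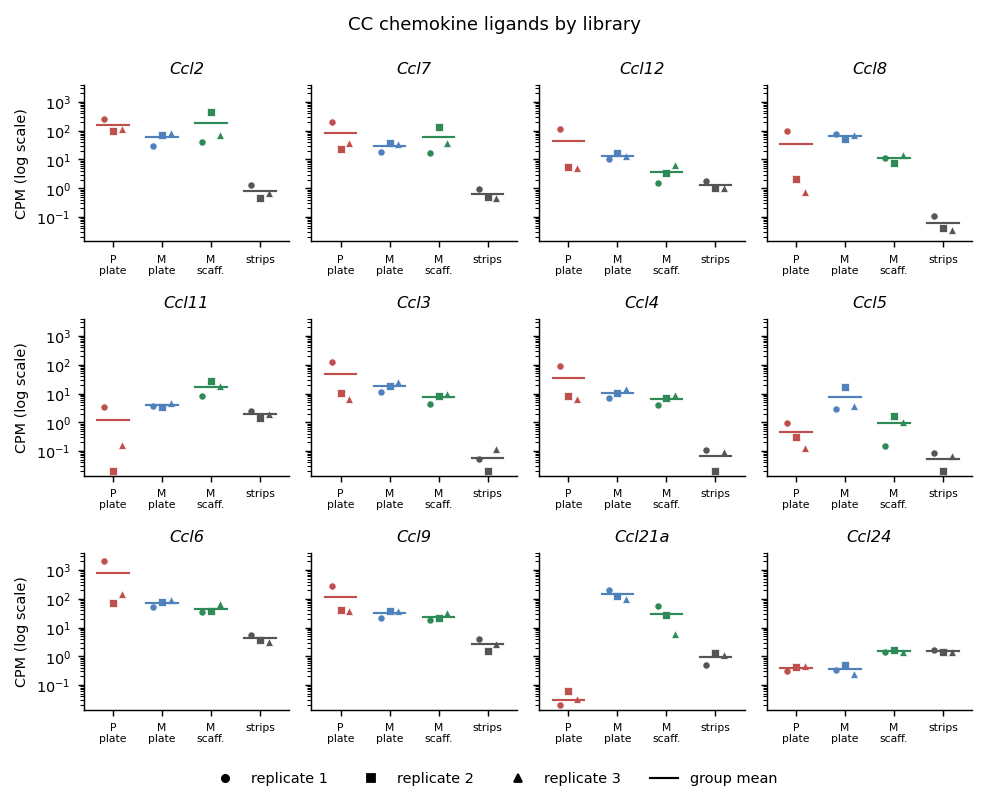
CPM (log scale) of 12 CC ligands in each library. Points are replicates, horizontal lines are group means, and values under 0.02 CPM are drawn at 0.02. Ccl2, Ccl7, Ccl3, Ccl4 and Ccl8 lie above strips in all 9 culture libraries, while Ccl21a separates M plate from P plate.

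The neutrophil-attracting ligands Cxcl1, Cxcl2, Cxcl3 and Cxcl5 were at or under 0.208 CPM in all strips. Cxcl5, which acts on Cxcr2, had 10 counts over the 3 strips, 0.0417 to 0.0821 CPM. P plate held 50.8, 1.66 and 12.2 CPM, M plate 24.8, 62.3 and 45.1 and M scaffold 79.8, 330 and 63.5. Its log2 difference from strips was 11.13 ± 1.59 in M scaffold (adjusted p = 0.000328), 9.29 ± 1.54 in M plate (adjusted p = 0.000600) and 8.26 ± 1.52 in P plate (adjusted p = 0.000822). It was 9.98 without M scaffold replicate 2 and 6.58 without P plate replicate 1. Cxcl1, the mouse counterpart of the GRO chemokines, had 0.0928 to 0.192 CPM in strips, 67.7, 5.01 and 20.6 in P plate, 16.1, 24.9 and 22.8 in M plate and 38.7, 132 and 12.2 in M scaffold. The log2 differences of Cxcl1 were 7.81 ± 1.31, 7.26 ± 1.29 and 8.78 ± 1.34 (adjusted p = 0.000453, 0.000917 and 0.000471). Without P plate replicate 1 the first was 6.50, and without M scaffold replicate 2 the last was 7.50. Cxcl2, of the same group, was called higher in each culture at lower levels, 0.344 to 6.34 CPM over the 9 libraries against 0.0274 to 0.208 in strips. Its call in M plate was lost without M plate replicate 2 or without strips replicate 1 or 3 (adjusted p = 0.0734 to 0.100). Its log2 differences were 4.81 in P plate (4.03 without P plate replicate 1), 3.83 in M plate and 5.14 in M scaffold (3.31 without M scaffold replicate 2), and 5.85, 4.86 and 6.19 without strips replicate 2. Cxcl3 had 54 counts in P plate, 12 in M plate, 29 in M scaffold and 2 in strips, a ratio of P plate to strips of 39.5 with a 95% counting interval of 10.4 to 334. Their receptor Cxcr2 had at most 5 counts in a library.

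Cxcl1, Cxcl2, Cxcl3, Cxcl5 and Cxcl15 lie within chr5:90759360-90905938 (GRCm38). The CXC ligands whose promoter windows hold a match to the κB consensus, the site bound by NF-κB dimers, were Cxcl1, Cxcl2, Cxcl10 and Cxcl3, the last read but not tested. To show where these matches lie, 140 bases upstream of their RefSeq starts (GRCm38.p6) are printed, 5′ to 3′ on the strand of the gene. Of the CC ligands, Ccl9 and Ccl20 hold a match too, 35 and 80 bases before the start, and are not printed. The ligands Ccl2, Ccl4, Ccl5, Ccl7, Ccl11, Ccl24, Ccl26, Cxcl5, Cxcl11, Cxcl16 and Cxcl17 had no window and were not searched. The stretches run from 170 to 31 bases before the start, at chr5:90891075-90891214 (plus strand), chr5:90903729-90903868 (plus), chr5:90785931-90786070 (plus) and chr5:92348920-92349059 (minus). Capitals mark the matches.
Cxcl1: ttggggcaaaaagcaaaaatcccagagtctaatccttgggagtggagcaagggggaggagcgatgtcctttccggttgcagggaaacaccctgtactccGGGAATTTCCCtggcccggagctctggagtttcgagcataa
Cxcl2: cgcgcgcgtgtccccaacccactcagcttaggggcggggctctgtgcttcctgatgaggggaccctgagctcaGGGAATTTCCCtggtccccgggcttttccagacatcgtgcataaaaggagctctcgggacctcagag
Cxcl3: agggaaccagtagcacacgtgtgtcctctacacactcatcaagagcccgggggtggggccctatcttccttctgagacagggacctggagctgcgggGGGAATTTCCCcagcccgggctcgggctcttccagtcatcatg
Cxcl10: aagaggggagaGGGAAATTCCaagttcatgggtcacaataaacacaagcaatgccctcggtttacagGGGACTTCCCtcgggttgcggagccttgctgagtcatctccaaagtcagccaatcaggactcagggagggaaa
In Cxcl1, Cxcl2 and Cxcl3 the capitals are 2 matches that overlap, GGGAATTTCC on the strand of the gene and GGAATTTCCC on the other, and they begin 71, 97 and 73 bases before the start. Cxcl10 holds GGGAAATTCC from 159 and GGGACTTCCC from 103 bases before its start. Searched on both strands of the 250 bases before each start, the κB consensus was found in 9 of 52 windows of 45 members (17.3%) and in 3.90% of all 32851 windows. The members were Cxcl1, Cxcl2, Cxcl3, Cxcl10, Ccl9, Ccl20, Ccr3, Ccr6 and Ackr2, of which Ccr6 was not read. TGANTCA, the AP-1 site, was in 11.5% of member windows and 6.75% of all windows. A match is a description of the sequence, not of binding.

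The 14 NF-κB subunits and feedback targets of a fixed list were all called higher than strips in each culture. The shares of all genes tested that were called higher were 30.5% in P plate, 26.5% in M plate and 24.5% in M scaffold. When P plate replicate 1 was left out, 13 of the 14, without Nfkbia, were called higher in P plate, against 28.3% of all genes. The median log2 differences of the list were 1.93 in P plate, 1.89 in M plate and 2.21 in M scaffold. Tnfaip2 was the largest in each, at 4.96 ± 0.46, 4.50 ± 0.45 and 5.48 ± 0.47 (adjusted p = 9.52e-06, 3.47e-05 and 2.53e-05). Bcl3, a nuclear IκB protein, and Tnfaip3, which ends NF-κB signalling, rose by 4.30 ± 0.35 and 2.69 ± 0.52 in P plate, and Icam1, a leukocyte adhesion molecule, by 3.14 ± 0.39. The list summed to 274 to 297 CPM in strips, 1135, 1018 and 943 in P plate, 802 to 1036 in M plate and 860 to 1708 in M scaffold, where replicate 2 was the highest. The part of macrophage content in the levels of this list, and that of NF-κB signalling in the levels of the chemokines, was not tested. Cxcl10, a ligand of Cxcr3 that is also induced by interferon, had 8.57, 115 and 6.91 CPM in M scaffold against 0.125 to 0.267 in strips. Its log2 difference was 7.55 ± 1.34 in M scaffold (adjusted p = 0.00109) and 5.07 without replicate 2. Cxcl10 was called higher in M plate too (6.27, and 5.39 without M plate replicate 2) and in P plate, a call lost with limma-voom (adjusted p = 0.0620). Of the other Cxcr3 ligands, Cxcl9 had at most 17 counts in a library and Cxcl11 at most 2.

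**Figure D3:**
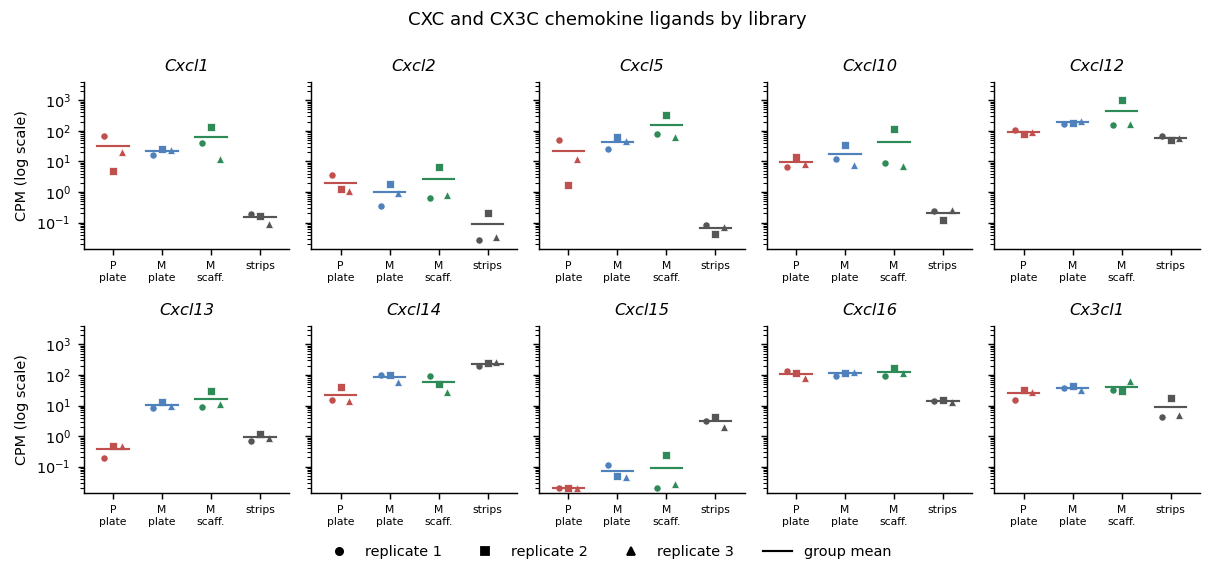
CPM (log scale) of 9 CXC ligands and Cx3cl1 in each library. Points are replicates, horizontal lines are group means, and values under 0.02 CPM are drawn at 0.02. Cxcl1, Cxcl5 and Cxcl10 lie above strips in all 9 culture libraries, M scaffold replicate 2 (green square) is the highest of its group for Cxcl1, Cxcl2, Cxcl5, Cxcl10 and Cxcl12, and Cxcl14 and Cxcl15 are highest in strips.

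Cxcl12, Cxcl16 and Cx3cl1, a homeostatic ligand and a pair of membrane-bound ones, were each at 4.13 CPM or more in all strips. Cxcl12, the ligand of Cxcr4 and Ackr3, stood at 67.0, 49.8 and 59.1 CPM in strips, 107, 77.3 and 89.1 in P plate, 170, 185 and 208 in M plate and 151, 1017 and 167 in M scaffold. Each culture library was above each strip library, but P plate did not pass the test (adjusted p = 0.369). Cxcl12 was called higher in P plate only with the 6 compared libraries alone, without or with the replicate block (adjusted p = 0.0226 and 0.0167), or with both P plate replicate 1 and M scaffold replicate 2 left out (adjusted p = 0.0168). The call in M scaffold held without replicate 2, when the log2 difference went from 2.92 to 1.43. The call in M plate (adjusted p = 0.0370) was lost when any 1 of the 6 libraries was left out (adjusted p = 0.0621 to 0.106). Cxcl16, a transmembrane ligand of Cxcr6, had narrow spreads, 12.6 to 14.9 CPM in strips against 91.4 to 170 in M scaffold, 94.0 to 123 in M plate and 81.2 to 130 in P plate. Each culture was called higher than strips, 7.82-fold in P plate, 7.99-fold in M plate and 8.96-fold in M scaffold. Cxcl16 shares 552 bases of exon with Zmynd15 on the other strand, and without a known strand setting the reads of the pair cannot be told apart. Cx3cl1, fractalkine, was at 4.13, 17.6 and 4.78 CPM in strips, 14.8, 32.4 and 27.5 in P plate, 31.7 to 44.1 in M plate and 30.7 to 61.6 in M scaffold. Cx3cl1 passed the test in each culture, but P plate overlapped with strips, and that call was lost with the 6 compared libraries alone (adjusted p = 0.0943) and without P plate replicate 2 or 3 or strips replicate 1 or 3 (adjusted p = 0.0731 to 0.110). Without strips replicate 2 its log2 differences went from 1.51, 2.10 and 2.25 to 2.46, 3.04 and 3.20. Ccl20, the ligand of Ccr6, had 1 count in strips and 130, 254 and 97 in P plate, M plate and M scaffold. The ratios to strips were 190, 270 and 81.1, with 95% counting intervals of 33.5 to 7560, 48.1 to 10720 and 14.2 to 3234, and 75 of the 97 counts of M scaffold were in its replicate 2, without which the fitted log2 difference went from 6.46 to 4.12.

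Against this direction, Cxcl14 was the most abundant ligand of strips and was lower in each culture. Cxcl14 is made steadily by epithelial and stromal cells. It stood at 192, 238 and 268 CPM in strips, 15.2, 39.7 and 13.9 in P plate, 102, 98.8 and 61.0 in M plate and 93.0, 51.9 and 28.4 in M scaffold, so that no culture library reached the strips. Its log2 difference was -3.34 ± 0.51 in P plate (adjusted p = 0.000249; -4.0 without P plate replicate 2), -1.42 ± 0.47 in M plate (adjusted p = 0.0267) and -2.01 ± 0.48 in M scaffold (adjusted p = 0.00575). The call in M plate was lost without M plate replicate 2 or 3 or strips replicate 2 or 3 (adjusted p = 0.0530 to 0.0947). Ccl27a, which draws skin-homing T cells through Ccr10, was at 6.05 to 6.87 CPM in strips and 1.29 to 2.52 over the 9 culture libraries. Its log2 difference was -1.76 ± 0.25 in P plate, -1.83 ± 0.25 in M plate and -1.93 ± 0.25 in M scaffold (adjusted p = 0.000156, 0.000194 and 0.000192). Of its sequence, 45.0% of 50-base words occur in other genes, so these counts are uncertain. Some members were singled out below the level of 5 CPM after their values were seen. Cxcl15, lungkine, had 2.04 to 4.09 CPM in strips and no counts in P plate, so strips were at least 88.1-fold higher (floor of 3 counts over the group), and it had 9 counts in M plate and 11 in M scaffold, 8 of them in replicate 2. It was called lower in each culture, and its log2 difference of -5.29 in M scaffold was -7.11 without M scaffold replicate 2 and -4.58 without replicate 3. Ccl24, an eotaxin that acts on Ccr3, was at 1.40 to 1.67 CPM in strips, 0.301, 0.430 and 0.446 in P plate, 0.236 to 0.482 in M plate and 1.38 to 1.71 in M scaffold, and was called lower than strips in P plate and M plate. Ccl25, which draws T cells to the small intestine through Ccr9, was at 4.0 to 5.61 CPM in strips and 2.06 to 4.01 over the cultures. It was called lower in M scaffold, by -0.95 ± 0.20 on the log2 scale (adjusted p = 0.00323), and in P plate, a call lost without P plate replicate 3, strips replicate 1 or 2, or the filter on low counts (adjusted p = 0.0564 to 0.0858). Ccl28, a mucosal ligand of Ccr10, was not called in any comparison, with 0.415 to 2.11 CPM over the 12 libraries. Intestinal epithelium markers, 6 genes, summed to 60.4 to 358 CPM in strips and to 2.96 to 7.84 over the cultures. The part of epithelial cells in the higher Cxcl14 and Cxcl15 of strips was not tested.

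The medium separated the plates most for Ccl21a and Ackr2. Ccl21a, which lymphatic vessels use to draw dendritic cells and T cells bearing Ccr7, had 0, 0.0615 and 0.0319 CPM in P plate and 201, 126 and 101 in M plate. M scaffold held 57.8, 27.9 and 6.18 CPM and strips 0.493, 1.33 and 1.08, so that no groups overlapped. P plate had 3 counts in all, and the ratio of M plate to P plate was 4465 with a 95% counting interval of 1528 to 21650 (log2 difference 12.09 ± 1.16, adjusted p = 7.34e-05; 11.49 without P plate replicate 1 and 13.00 without replicate 2). Against strips, Ccl21a was 7.21 ± 0.83 higher on the log2 scale in M plate (adjusted p = 7.02e-05) and called higher by 4.99 in M scaffold (4.13 without M scaffold replicate 1), and -4.88 ± 1.32 in P plate (adjusted p = 0.00812; -4.32 and 0.0505 without P plate replicate 1, -5.79 without replicate 2). The call in P plate was also lost with limma-voom (adjusted p = 0.153). Of its 50-base words, 71.6% occur in Ccl21b or in other near-identical copies, so the counts are uncertain. Ackr2, an atypical receptor of lymphatic endothelium that degrades inflammatory CC chemokines, had 8 counts over P plate (0.0638 to 0.0922 CPM), and stood at 110, 165 and 82.9 CPM in M plate. M scaffold held 44.0, 14.6 and 5.93 CPM of Ackr2 and strips 0.110 to 0.375. It was 10.50 ± 0.96 higher in M plate than in P plate on the log2 scale (adjusted p = 6.45e-05), and 8.71 ± 0.84 higher in M plate than in strips (adjusted p = 2.88e-05).

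The 5 lymphatic endothelial markers, Lyve1, Prox1, Flt4, Reln and Mmrn1, were all called higher in M plate than in P plate, with a median log2 difference of 8.11. Their sum was 4086 to 5278 CPM in M plate, 2073, 1538 and 270 in M scaffold, 34.6 to 58.7 in strips and 9.09 to 37.9 in P plate, and none was at 0 in a whole group. Per 1000 CPM of these markers, Ccl21a amounted to 23.8 to 41.5 CPM in M plate, against 18.1 to 27.9 in M scaffold, and in strips to 14.2 to 37.6. These 3 ranges overlap, while those of CPM do not. In P plate it amounted to 0, 6.49 and 3.51 per 1000, below each M plate library. Ackr2 amounted to 20.3 to 31.2 per 1000 in M plate, against 9.51 to 21.9 in M scaffold, and in strips to 3.17 to 10.6. P plate held 2.17, 9.74 and 7.02 of Ackr2 per 1000, also below each M plate library. The part of the lymphatic cells in the differences of Ccl21a and Ackr2 was not tested.

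**Figure D4:**
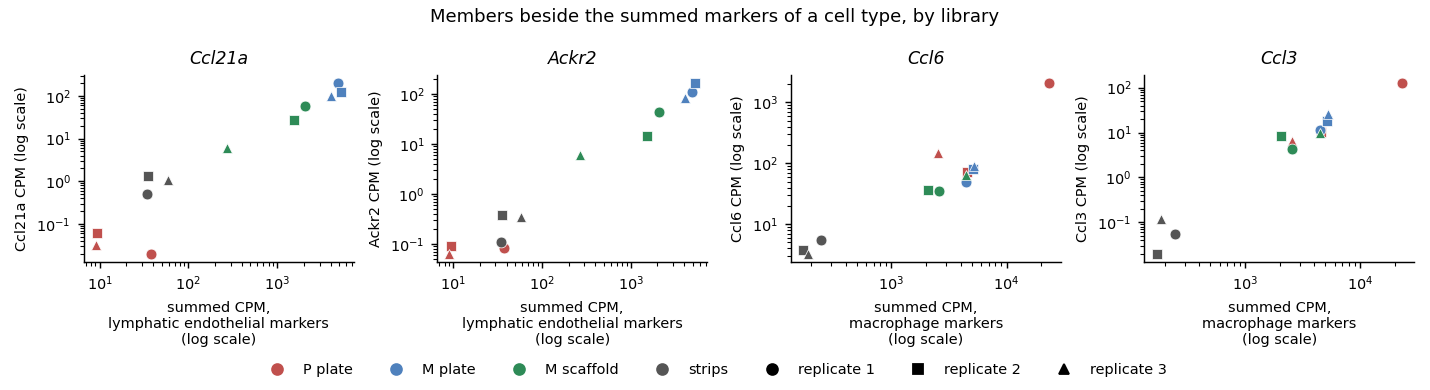
CPM of a member (log scale) against the summed CPM of cell type markers (log scale) in the 12 libraries: Ccl21a and Ackr2 against lymphatic endothelial markers, Ccl6 and Ccl3 against macrophage markers. Values under 0.02 CPM are drawn at 0.02. M plate (blue) is at the top right for Ccl21a and Ackr2, M scaffold replicate 3 (green triangle) is the lowest M library in both, and P plate replicate 1 (red circle) is at the top right for Ccl6 and Ccl3.

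The other ligands called between the media were Cxcl13, Ccl5 and Cxcl14, higher in M plate, and Ccl6, lower. Cxcl13, which draws B cells into lymphoid follicles through Cxcr5, stood at 0.192, 0.492 and 0.478 CPM in P plate and 8.0, 12.7 and 9.45 in M plate, a log2 difference of 4.70 ± 0.55 (adjusted p = 0.000223). M scaffold was at 8.76, 29.4 and 10.8 CPM and strips at 0.684 to 1.17, and both M groups were called higher than strips (4.18 in M scaffold, 3.43 without its replicate 2). Ccl5, RANTES, made by T cells and macrophages, was at 0.958, 0.307 and 0.128 CPM in P plate and 2.92, 17.0 and 3.70 in M plate. Its log2 difference was 4.05 ± 1.01 (adjusted p = 0.0158), 2.80 without M plate replicate 2 (adjusted p = 0.0669), 3.62 without P plate replicate 3 (adjusted p = 0.0547) and 5.15 without P plate replicate 1. Against strips, Ccl5 was 7.0 ± 1.25 higher in M plate (adjusted p = 0.000914; 5.75 without M plate replicate 2), and it was called higher in M scaffold, a call lost without M scaffold replicate 2 or strips replicate 2 or 3 (adjusted p = 0.0527 to 0.0616) and with limma-voom (adjusted p = 0.0723). Cxcl14 was 1.93 ± 0.48 higher in M plate than in P plate (adjusted p = 0.0162), 2.58 without P plate replicate 2, and not called without M plate replicate 1 or P plate replicate 3 (adjusted p = 0.0540 and 0.0618). Ccl6 had a log2 difference of -3.39 ± 1.03 (adjusted p = 0.0356), but the groups overlapped, and without P plate replicate 1 it was -0.59 (adjusted p = 0.258). Its call was also lost without any 1 of the M plate libraries (adjusted p = 0.0872 to 0.121). Without P plate replicate 1, 13 members were called higher in M plate than in P plate and 0 lower, where 16.4% and 12.2% of all genes were. The members called then and not before were Ackr1, Ccl8, Ccl11, Cxcl5 and Cxcl17. With both P plate replicate 1 and M scaffold replicate 2 left out the counts were 14 higher and 1 lower, Ccr1, where 16.4% and 12% of all genes were. Lymphocyte markers, 10 genes, summed to 38.5 to 81.1 CPM in M plate and 4.92 to 19.0 in P plate, with Cd3d and Cd3g among the markers at 0 in both groups. Their part in the difference of Ccl5 and Cxcl13 was not tested.

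With the medium held the same, 2 members were called between scaffold and plate in the unpaired fit. Ccl24, already described and singled out below 5 CPM, was higher on the scaffold without overlap, by 2.10 ± 0.29 on the log2 scale (adjusted p = 0.0102), and remained called with each library left out in turn (adjusted p = 0.0203 to 0.0498). Ackr3 was lower on the scaffold, by -1.29 ± 0.18 (adjusted p = 0.0113), with 46.1, 26.7 and 40.0 CPM against 87.0, 96.8 and 91.4, and lost its call without M plate replicate 2 (adjusted p = 0.0632). M plate and M scaffold libraries with the same replicate number deviated together, so they were also fitted as pairs. With the replicate as a block in the fit of all 12 libraries, the counts were again 1 higher and 1 lower. In a fit of these 6 libraries alone with the block, 3 members were called higher and 11 lower, where 787 genes were higher and 931 lower. The members added there included Ackr4 and Ccl11, higher, and Ackr2, Ccl3, Ccl4, Ccl5, Ccl8, Ccl12, Ccl21a, Cxcl17 and Cxcr3, lower. The paired log2 differences were -2.63 for Ccl21a (adjusted p = 0.0387), -2.89 for Ackr2 (adjusted p = 0.0420), -2.63 for Ccl8 (adjusted p = 0.0164), 2.00 for Ccl11 (adjusted p = 0.0407) and 1.28 for Ackr4 (adjusted p = 0.0211). Without the block, Ackr2 stood at -2.48 ± 0.60 (adjusted p = 0.0537) and Ccl21a at -2.22 ± 0.64 (adjusted p = 0.0840). Cxcl17, a mucosal chemokine that was not tested in the fit of all libraries, had 44 counts in M plate, 7 in M scaffold, 1 in P plate and 2 in strips.

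Fewer receptors than ligands were read, 10 of 18 against 31 of 38. Ccr1, which binds Ccl3, Ccl5, Ccl6 and Ccl9, stood at 202, 21.1 and 19.6 CPM in P plate, 13.8 in every M plate library, 4.79, 1.99 and 6.95 in M scaffold and 3.05 to 4.03 in strips. In P plate it was called higher than strips, with a log2 difference of 4.57, and 2.55 without P plate replicate 1. Between the media, Ccr1 had a log2 difference of -2.55 ± 0.81 in M plate against P plate (adjusted p = 0.0433). Without P plate replicate 1 it was -0.56 (adjusted p = 0.276), and the call was lost without any 1 of the M plate libraries (adjusted p = 0.112 to 0.122).

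Cx3cr1, the fractalkine receptor, was uneven in P plate, at 3.37, 53.4 and 7.24 CPM, and even in M plate, at 49.8, 46.4 and 37.1. Strips were at 6.87 to 8.78 CPM and M scaffold at 3.78, 1.68 and 13.3, so that M plate was above both. It was called higher in M plate than in strips (adjusted p = 0.0452), a call lost when any 1 of the 6 libraries was left out (adjusted p = 0.0684 to 0.123). Per 1000 CPM of macrophage markers, Cx3cr1 amounted to 28.0 to 46.9 CPM in strips, 11.1, 9.08 and 7.09 in M plate, 1.47, 0.809 and 2.97 in M scaffold and 0.145, 11.8 and 2.85 in P plate. Strips were thus highest on that scale, though not in CPM, and the order depends on the markers summed. Csf1r, 1 of these markers, was at 67.2 to 75.2 CPM in strips and 232 to 350 in M plate, a smaller difference than that of the sum. Cxcr4, the signalling receptor of Cxcl12, was at 52.9, 19.8 and 7.68 CPM in P plate, above strips at 5.75 to 7.64. Cxcr4 was called higher there, with a log2 difference of 1.97, and 0.97 without P plate replicate 1 (adjusted p = 0.0656). Cxcr3 stayed under 3 CPM in every library. In P plate and M plate it was called higher than strips, and lost the first call without P plate replicate 1 or any 1 of the strips (adjusted p = 0.0505 to 0.238) and the second without strips replicate 1 or 3. Ccr3, the eotaxin receptor, was called higher in M plate than in P plate, at 3.1, 2.08 and 0.802 against 0.0638 to 0.383 CPM (log2 difference 3.33, and 4.36 without P plate replicate 1), and was called higher than strips in M plate and M scaffold. The last call was lost without M scaffold replicate 1 or 3 or any 1 of the strips (adjusted p = 0.0674 to 0.110), and with limma-voom (adjusted p = 0.0617). Ccr10, the receptor of Ccl27a and Ccl28, was not called in any comparison, with group means of 1.02 to 1.14 CPM. Ccr2, the receptor of Ccl2, Ccl7 and Ccl12, had 34 counts over the 3 strips, 7 in P plate, 12 in M plate and 5 in M scaffold. The receptors Cxcr5 and Cxcr6, which bind Cxcl13 and Cxcl16, had at most 7 and 9 counts in a library. Ccr7, which binds Ccl19 and Ccl21a, and Ccr9, which binds Ccl25, had at most 21 and 15. Ccl19 itself had 0 counts in P plate, 24 in M plate, 52 in M scaffold and 1 in strips, and Ccl17, a ligand of Ccr4, had 30, 17, 7 and 2 in that order.

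The atypical receptors did not share a direction. Ackr3, which scavenges Cxcl12, was at 106, 102 and 101 CPM in strips, 87.0, 96.8 and 91.4 in M plate, 46.1, 26.7 and 40.0 in M scaffold and 9.77, 10.8 and 13.7 in P plate. No groups overlapped, and the step from M plate to strips did not pass the test (log2 difference -0.17 ± 0.18, adjusted p = 0.447). P plate differed from strips by -3.18 ± 0.20 (adjusted p = 9.88e-07), M scaffold from strips by -1.46 ± 0.18 (adjusted p = 0.000167) and M plate from P plate by 3.01 ± 0.20 (adjusted p = 1.35e-05). Ackr4, which scavenges Ccl19, Ccl21 and Ccl25, stood at 39.4, 28.1 and 33.7 CPM in strips, 2.52, 9.47 and 5.74 in P plate, 25.2, 15.5 and 15.3 in M plate and 48.4, 38.6 and 44.6 in M scaffold. P plate differed from strips by -2.52 ± 0.40 (adjusted p = 0.000320) and M plate from P plate by 1.66 ± 0.39 (adjusted p = 0.0116; 0.0507 without M plate replicate 1 and 0.0714 with the 6 compared libraries alone). Ackr1, the Duffy antigen receptor of venular endothelium, was at 3.96 to 6.02 CPM in strips, 1.38, 0.685 and 1.48 in M plate, 2.0, 2.39 and 3.4 in M scaffold and 1.78, 0.154 and 0.223 in P plate. It differed from strips by -2.81 ± 0.74 in P plate (adjusted p = 0.00688; -4.79 without P plate replicate 1) and by -2.11 ± 0.71 in M plate (adjusted p = 0.0265), a call lost in 5 of the 6 leave-one-out fits (adjusted p = 0.0546 to 0.0927), with strips replicate 2 the exception. Ackr2 was called higher in M scaffold than in strips as well, by 6.23 on the log2 scale, and 5.16 without M scaffold replicate 1. Exons of Ackr1 and Ackr4 overlap those of Cadm3 and Acad11. Endothelial markers, 8 genes listed for blood vessels, summed to 21.2 to 67.9 CPM in P plate and 153 to 252 in strips. In M plate they summed to 1777 to 2160 CPM and in M scaffold to 1610, 1075 and 241. The lymphatic sum fell over the same M scaffold replicates, at 2073, 1538 and 270 CPM. The 8 genes are therefore not taken as specific to blood vessels. The part of the endothelium in the levels of Ackr1 and Ackr3 was not tested.

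**Figure D5:**
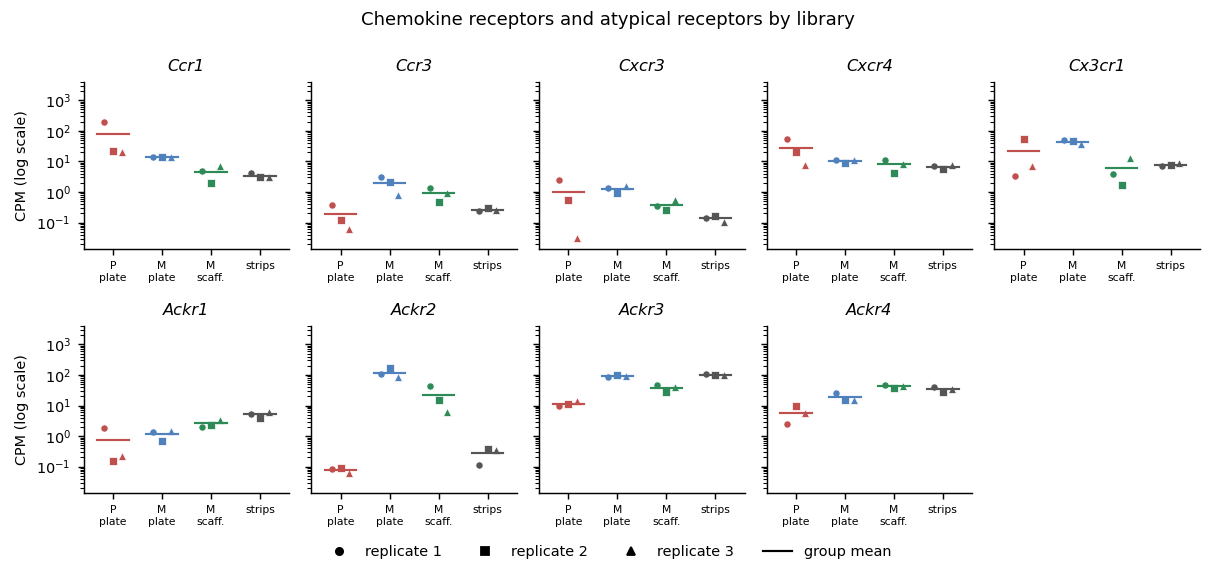
CPM (log scale) of 5 signalling receptors and the 4 atypical receptors in each library. Points are replicates and horizontal lines are group means. Ccr1 and Cxcr4 have their highest point in P plate replicate 1, Ackr2 is under 0.4 CPM in P plate and strips, and Ackr3 is lowest in P plate.

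Genes that handle chemokines or carry their signal were counted against the shares of all genes tested that were called higher than strips, which were 30.5% in P plate, 26.5% in M plate and 24.5% in M scaffold, and lower, 32.7%, 28.4% and 27.6%. Of 12 proteases that cut or shed chemokines, 10 were tested, and 8 in P plate, 8 in M plate and 7 in M scaffold were called higher than strips and 0 lower. Mmp12, the macrophage elastase, was 10.39 ± 1.09 higher in P plate (adjusted p = 2.06e-05; 9.29 without P plate replicate 1) and Mmp3 10.67 ± 0.98 higher in M scaffold (adjusted p = 3.48e-05). Adam17, a sheddase of fractalkine that was singled out after its values were seen, was 1.74 ± 0.17, 1.84 ± 0.17 and 1.86 ± 0.17 higher in P plate, M plate and M scaffold, on the log2 scale. Between the media, 3 of the 10 proteases tested were lower in M plate than in P plate and 0 higher, where 10.6% and 14.3% of all genes were. The 3 were Mmp13 (-3.21 ± 0.77), Mmp12 (-2.35 ± 0.69) and Mmp2 (-1.46 ± 0.37). Mmp12 was at -1.27 and no longer called when P plate replicate 1 was left out (adjusted p = 0.0993). Of the 22 genes of receptor signalling, all tested, 12 rose and 5 fell in P plate against strips, 11 and 4 in M plate, and 9 and 5 in M scaffold, with medians of 0.40, 0.41 and 0.29. With P plate replicate 1 left out, 8 rose and 6 fell in P plate, where 28.3% and 34.1% of all genes did. In M plate against P plate, 3 of the 22 were higher and 2 lower, near the shares of all genes (14.3% and 10.6%). Without P plate replicate 1 these counts were 10 and 1, where 16.4% and 12.2% of all genes were called. Those that rose most in P plate were Pik3r5 (5.77 ± 0.72), Dock2 (5.61 ± 0.78) and Rac2 (4.64 ± 0.76), which act in leukocyte migration, and the kinase Grk3 had the largest fall (-6.64 ± 0.36). These values were 4.85, 4.28, 3.40 and -6.78 without P plate replicate 1. All 12 macrophage markers were called higher in P plate too (median 5.55, and 4.19 without that library), and the part of macrophage content in the first 3 was not tested. Grk3 was higher in M plate than in P plate (3.95 ± 0.32, adjusted p = 4.07e-05). Of 12 genes for heparan sulphate carriers and the enzymes that build the chains, on which chemokines are held, 4, 5 and 5 were called higher than strips in P plate, M plate and M scaffold and 0 lower. The 4 of 12 in P plate are near the share of all genes, and without P plate replicate 1 the count was 3 higher and 2 lower. The largest was Ext1 in P plate (2.66 ± 0.11, adjusted p = 2.93e-07), Ext1 in M plate (1.38 ± 0.11) and Sdc4 in M scaffold (1.66 ± 0.33). Of 9 family members outside the symbol rule, 8 were tested, with 4 higher and 3 lower in P plate, 2 and 2 in M plate and 3 and 2 in M scaffold against strips. Rarres2, the chemerin precursor, fell (-3.89 ± 0.39 in P plate, -3.03 ± 0.38 in M plate and -2.77 ± 0.37 in M scaffold), while its receptor Cmklr1 rose (3.15 ± 0.74, 4.03 ± 0.77 and 2.63 ± 0.73). When P plate replicate 1 was left out, Cmklr1 was 1.89 higher in P plate than in strips, and 2.09 higher in M plate than in P plate, a call not made with all libraries (adjusted p = 0.0196 and 0.377).

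Members lie in gene clusters, so neighbours are not independent. On chromosome 11, Ccl2, Ccl7, Ccl11, Ccl12, Ccl8 and Ccl1 lie within chr11:82035571-82305690 (GRCm38), where 4 of the 5 tested were called higher than strips in each culture. Of all genes tested, 30.5%, 26.5% and 24.5% were called higher in P plate, M plate and M scaffold. Ccl5, Ccl9, Ccl6, Ccl3 and Ccl4 lie within chr11:83525778-83664683, where 4 of 5 were higher in P plate and 5 of 5 in M plate and in M scaffold. In the CXC cluster of chromosome 5 described above, 3 of 4 tested members were higher and 1, Cxcl15, lower in each culture. Cxcl15 lies between Cxcl3 and Cxcl1 there.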

How the data were processed

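The authors deposited raw read counts per Ensembl gene, whole numbers in 1 table with 1 column per sample. Per the submitters' processing notes, the tools include STAR 2.6.0 and the builds are given as GRCm38 or mm10. No source used here names the counting program, the annotation or the strand setting. Per the labels' protocols, RNA came from RNeasy columns after Qiashredder lysis, and TruSeq v2 chemistry gave the libraries. The series text names 2 technical replicates per sample, and no source used here says how these were joined. The 5 summary entries of the table were left out. Among them, the unassigned, ambiguous and multiply mapped reads made up 43.4% to 51.6% of their sum with the gene counts in each library. Reads mapped to several places were counted apart, which lowers members with near-identical copies (Ccl21a, Ccl27a, Ccl19).

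Of 52550 identifiers, 52403 were matched to a symbol in GENCODE M21. Genes were filtered with filterByExpr (17700 left), scaled by TMM (factors 0.893 to 1.15) and tested with edgeR 4.0.16 in R 4.3.3, in a quasi-likelihood fit of all 12 libraries with 1 coefficient per group (8 residual degrees of freedom). Adjusted p values are two-sided Benjamini-Hochberg values over all genes tested in a comparison. CPM values are TMM-scaled. Intervals and floors reflect counting error alone, because reads lacking molecular identifiers may be copies of 1 molecule. The scripts were tested on simulated data. Alternatives were DESeq2 1.42.0 (Wald test or size factors), limma-voom (limma 3.58.1), no filter, the 6 compared libraries alone, each library left out, and the replicate number as a block. Leaving out both P plate replicate 1 and M scaffold replicate 2, and the block within 6 libraries, were chosen after seeing the data.

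Full statistics were given for called members whose mean reached 5 CPM in a group, for at most 8 rises and 8 falls per comparison by size, and list genes were named where called, at most 4 per list and comparison. Members and lists were chosen with earlier results of these data known. Same-numbered samples of M plate and M scaffold deviated together from their group means (correlation over genes 0.29, 0.20 and 0.30 for replicates 1 to 3). The main test of these groups was unpaired, and fits with the replicate number as a block were given beside it. In the other comparisons at least 1 of 3 pairs was under 0.1. No source used here gives the animals per replicate. Promoter windows came from RefSeq (GRCm38.p6), and 17 members had no window. Values of 1 member are not reported here.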

Additional observations from a re-analysis of the deposited data

How the results depend on the processing

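No member reversed its direction under any alternative run in a comparison where it was called. Directions of members in comparisons without a call were not followed. Of the called members, 5 of 11 (M plate against P plate), 1 of 2 (M scaffold against M plate), 23 of 28 (P plate against strips), 22 of 29 (M plate against strips) and 23 of 27 (M scaffold against strips) stayed called with each library left out in turn. Depth limits the 8 members read but not tested. Each value below was set by the alternative named, and the cause was not tested.

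In M plate against P plate, leaving out single libraries gave 6 to 13 members higher and 0 to 5 lower, and 1818 to 2975 genes higher and 812 to 2213 lower. The 3 lower members became 0 with the 6 compared libraries alone and 0 with limma-voom. With both P plate replicate 1 and M scaffold replicate 2 left out, 14 members were higher and 1 lower (2972 and 2169 genes). Over all genes, 1116 were lower with the 6 libraries alone and 1187 with no filter. In M scaffold against M plate, leaving out single libraries gave 1 member higher and 0 to 2 lower, 7 to 225 genes higher and 11 to 131 lower. DESeq2 gave 2 members higher and 6 lower (1146 and 873 genes), the 6 libraries alone 3 and 5 (455 and 613 genes), limma-voom 2 and 3 (459 and 545 genes), no filter 4 lower, and leaving out both libraries 2 and 6 (903 and 591 genes). In M plate against strips, leaving out single libraries gave 3 to 5 members lower. The other counts against strips stayed within 1.5 times of their value under these settings.

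For pairing, the replicate block in all 12 libraries gave 1 member lower in M plate against P plate, and 222 genes higher and 169 lower in M scaffold against M plate. The replicate block within the 6 compared libraries gave 7 members higher and 0 lower in M plate against P plate (942 genes higher and 358 lower), 3 higher and 11 lower in M scaffold against M plate (787 and 931 genes), and 3374 genes higher in P plate against strips. Outside M scaffold against M plate, no source used here says whether same-numbered samples share more than the number.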
